A study of Mus musculus with 8 samples.

Results

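Messenger RNA decay was followed through 37 genes that encode the deadenylases, their adaptors, the decapping and exonuclease machinery, sequence-specific recruiters and nonsense-mediated decay factors. The members were taken by symbol from a table of 49641 gene entries. All 37 were found and all 37 passed the filter of a mean of at least 1 FPKM (fragments per kilobase of transcript relative to the library's mapped fragments), which left 12786 entries to test. The study sequenced RNA from mouse embryonic stem cells in 4 groups of 2 libraries to ask, by its title, how the miR-290 family and the muscleblind-like proteins oppose each other in splicing and gene expression.

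The groups were wild-type cells (WT), cells with a knockout of Dgcr8 (Dgcr8 KO), Dgcr8 KO cells transfected with miR-294, and Dgcr8 KO cells transfected with siMbnl1/2, siRNAs against Mbnl1 and Mbnl2. Every sample was labelled as line V6.5 of strain 129/C57BL/6. The last 3 groups all lack Dgcr8, the RNA-binding partner of Drosha that is needed to make canonical microRNAs. WT and Dgcr8 KO were labelled control, and their columns were named as mock under different cell names (V65 and ES1), so a shared parental line was not established and a difference between them also holds any difference between lines. Cells received 50 nM of mimic or siRNA 16 hours after they were plated, and no group with a non-targeting RNA was among the samples. The medium held serum and LIF, and plates were coated with gelatin or with irradiated fibroblast feeders, without a statement of which sample had feeders. Nothing states that the 2 libraries of a group came from separate cultures, and the p-values here then reflect the spread between these libraries alone, which may be technical.

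A messenger RNA usually begins to decay by losing its poly(A) tail. The PAN2-PAN3 complex and then the CCR4-NOT complex shorten the tail, after which the cap is removed by DCP2 with its partners and the body is digested from the 5′ end by XRN1, or from the 3′ end by the RNA exosome. MicroRNAs act largely through this route: Argonaute pairs with the target through the microRNA seed, and the bound TNRC6 protein recruits PAN2-PAN3 and CCR4-NOT. miR-294 belongs to the miR-290 cluster, the most abundant microRNA family of mouse embryonic stem cells. Most of the deadenylation and decapping genes among the members are thus parts of the machinery that miR-294 uses. The nonsense-mediated decay factors and sequence-specific recruiters are outside the route described here. Any member may carry sites for miR-294.

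The miR-294 guide strand and some of the cluster and family members that share its seed are shown first, because the comparison with miR-294 is read against this seed. Another with this seed, miR-302d-3p, is not shown. Sequences are from RefSeq, 5′ to 3′, with the seed (bases 2 to 8) in capitals. miR-294-3p lies at chr7:3220691-3220712 on the plus strand of mm10.
mmu-miR-294-3p: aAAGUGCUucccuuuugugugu
mmu-miR-291a-3p: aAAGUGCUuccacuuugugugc
mmu-miR-295-3p: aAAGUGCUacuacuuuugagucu
mmu-miR-302b-3p: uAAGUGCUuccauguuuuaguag

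Matches to this seed were searched on the transcript strand in the longest annotated 3′ UTR of each gene (GENCODE M21, mm10). The motif searched was the 8-base match AGCACTTA and, where it was not whole, its first or last 7 bases, with overlapping motifs counted once. At least 1 match was found in 8 of the 37 members (21.6%) and in 2382 of 11507 tested genes with an annotated 3′ UTR (20.7%), so the members held matches about as often as other genes. The 8-base match was found in 4 members (10.8%) and in 3.55% of all these genes. The members' median 3′ UTR was 1498 bases against 1125 for all genes. The windows below show the matches in capitals for 7 of the 8 members, so that the responses to miR-294 can be read beside the sites. All lie in 3′ UTRs.
Cnot6, first match: gagaggggaggAGCACTTActcatctctgc
Cnot6, second match: tatttcatattAGCACTTtgaaacctaaag
Cnot6l: cacattatcaaAGCACTTAaatttgcttga
Btg1: gacttttacctAGCACTTAaaatgtataaa
Tob2: atagggaggttAGCACTTtttctaattgga
Pan3: gacagactccaAGCACTTgcaactgatgtt
Dcp1b: gttcaatccctAGCACTTAaaaaaagaaat
Zfp36l2: aggcccctccgAGCACTTggactcgaactc

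The matches of Cnot6 lay at chr11:49673044-49673051 and chr11:49672194-49672200 on the minus strand, 2142 and 2993 bases after the stop codon. That of Cnot6l lay at chr5:96076658-96076665 (minus), that of Btg1 at chr10:96619145-96619152 (plus) and that of Tob2 at chr15:81850137-81850143 (minus). The match of Pan3 was at chr5:147547053-147547059 (plus), that of Dcp1b at chr6:119221498-119221505 (plus) and that of Zfp36l2 at chr17:84185654-84185660 (minus). The eighth member was Dcp2, with 5 matches in a 3′ UTR of 7240 bases.

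Libraries held between 26.8 and 34.5 × 10⁶ fragments, estimated from the step that 1 fragment makes in the low values of long genes (88.0% to 92.1% of these values were whole multiples within 0.1 of a step). All 8 of the 8 embryonic stem cell markers were at or above 1 FPKM in every library. These markers also moved: 3 were higher and 3 lower in Dgcr8 KO minus WT (differences from -0.89 to 1.03 on the log2 scale), 4 were higher and 3 lower in miR-294 minus Dgcr8 KO, and none was called after siMbnl1/2, and their part in the results on decay genes was not tested. Of 10 fibroblast markers 1 (Thy1) reached 1 FPKM, 2 to 4 were at 0, and their summed level was 2.09 to 4.56 FPKM, lowest in Dgcr8 KO and highest with miR-294. Dgcr8 averaged 22.4 FPKM in WT and 7.04 to 8.19 FPKM in the 3 knockout groups. Mbnl2 averaged 26.6 FPKM in Dgcr8 KO and 12.8 FPKM after siMbnl1/2, and Mbnl1 8.71 and 6.80 FPKM. Pairs of libraries were less alike in Dgcr8 KO (median SD of a gene 0.102 on the log2 scale) and siMbnl1/2 (0.121) than in WT (0.046) and miR-294 (0.049).

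Members moved in both directions in Dgcr8 KO cells, neither more often than all genes did. Of those that changed by at least 0.5, Cnot6, Cnot6l, Xrn1 and the adaptors Btg1, Tob1 and Tob2 rose. The poly(A)-binding proteins Pabpc1 and Pabpc4, the decapping factors Edc4 and Lsm1 and the helicase Upf1 fell. Roles were not uniform: by smaller differences the deadenylases Cnot7 and Cnot8 fell, though both calls were lost under several alternatives. The decapping factor Patl1 rose by 0.4997, just under 0.5. Differences are between means of log2(FPKM + 1), given with the standard error of limma's fit over all 8 libraries. Calls are differences whose adjusted p, by the method of Benjamini and Hochberg across every gene tested, was under 0.05. In Dgcr8 KO minus WT, 19 of 37 members were called (51.4%), 8 higher and 11 lower, where 59.8% of all genes were called, 29.6% higher and 30.1% lower. In miR-294 minus Dgcr8 KO, 17 were called (45.9%), 6 higher and 11 lower, against a background of 52.2%, 22.9% higher and 29.2% lower, and 11 members were called without miR-294 replicate 1. The share of members called was thus below that of all genes in both comparisons, and the median difference of the members was -0.06 and 0.04 against 0.00 and -0.06 for all genes. What the genes show is therefore read member by member. Both comparisons use the same Dgcr8 KO libraries, so their values are given side by side and not as independent evidence. In bulk RNA, fewer cells expressing a gene and less RNA per cell cannot be told apart.

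**Figure D1:**
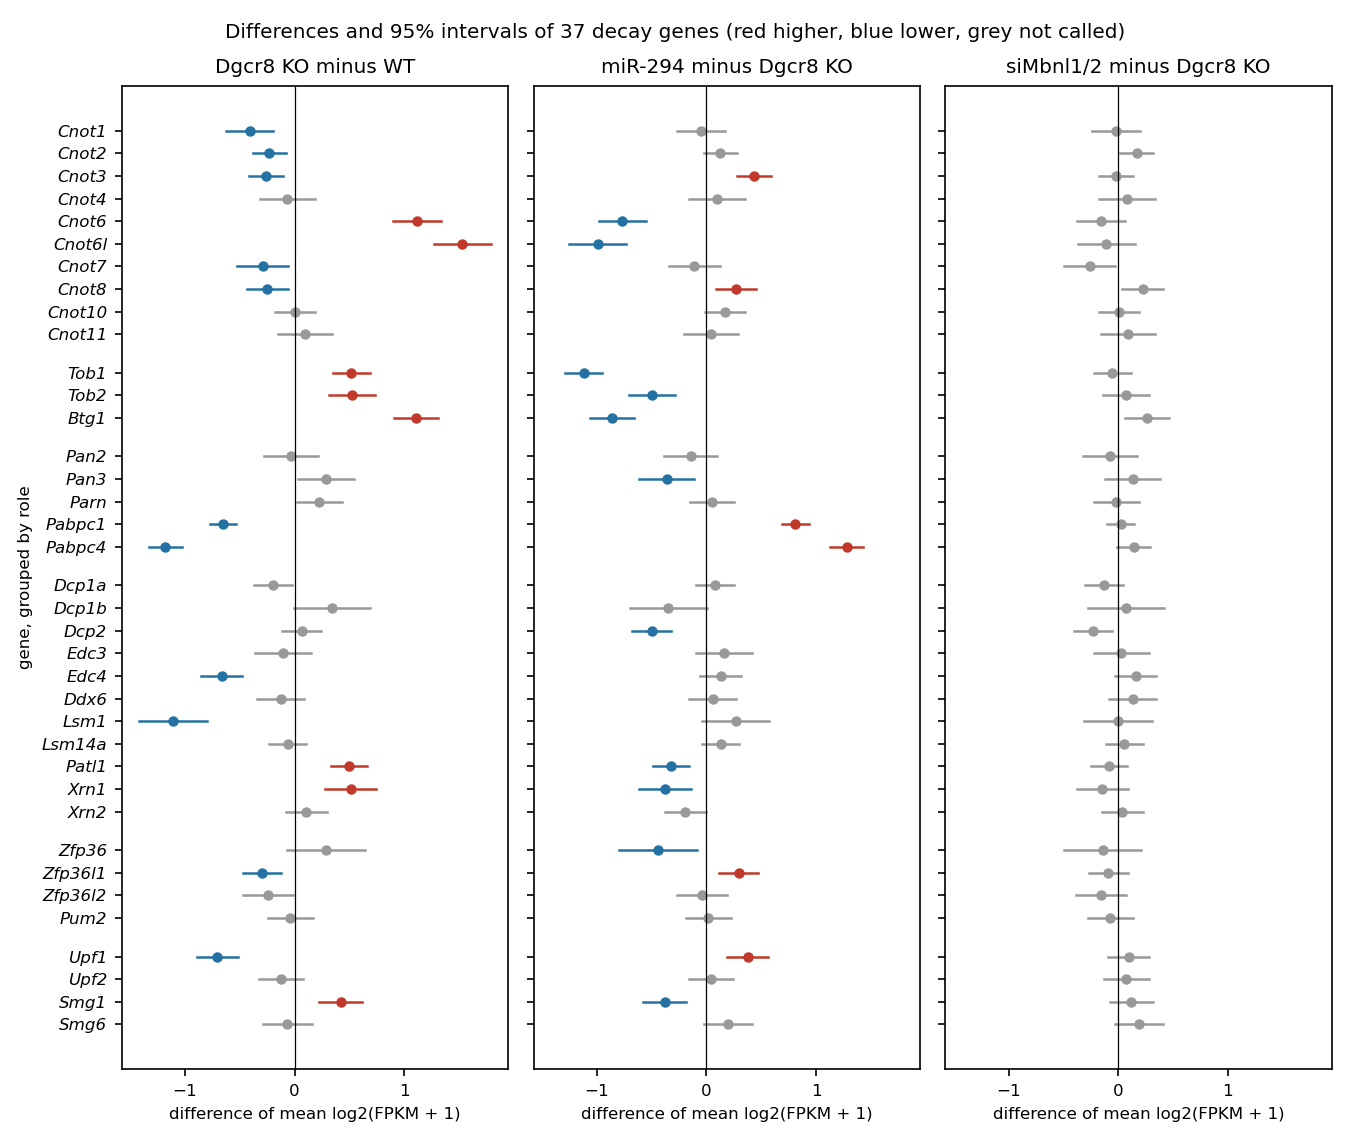
Difference of mean log2(FPKM + 1) for each of the 37 genes, grouped by role, in 3 comparisons with 95% intervals; red and blue are called higher and lower at an adjusted p under 0.05, grey is not called. Cnot6l (1.53) and Pabpc4 (-1.18) are the extremes of the first panel, several genes lie on opposite sides of 0 in the second panel, and no gene is coloured in the third.

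Of the 10 CCR4-NOT subunits, 2 rose and 5 fell in Dgcr8 KO, where 29.6% of all genes rose and 30.1% fell. The 2 that rose were the paralogous catalytic subunits Cnot6 and Cnot6l, while the other catalytic pair, Cnot7 and Cnot8, was among the 5 that fell. Cnot6 (chr11:49671503-49712723, minus strand) encodes a nuclease of the exonuclease-endonuclease-phosphatase type. It measured 22.9 and 23.1 FPKM in WT, 47.7 and 54.6 in Dgcr8 KO, 29.1 and 30.1 with miR-294, and 48.8 and 42.6 with siMbnl1/2. The Dgcr8 KO and siMbnl1/2 libraries overlapped, both lay above those with miR-294, and WT was lowest. The difference was 1.12 ± 0.09 for Dgcr8 KO minus WT (adjusted p = 5.49e-05, limma) and -0.77 ± 0.09 for miR-294 minus Dgcr8 KO (adjusted p = 4.66e-04).

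Cnot6l (chr5:96070333-96164171, minus strand), the close paralog that can take the same place in the complex, was at 5.40 and 5.28 FPKM in WT and at 16.3 and 18.4 in Dgcr8 KO. It measured 7.58 and 8.88 FPKM with miR-294 and 14.9 and 17.2 with siMbnl1/2. The order of the groups was that of Cnot6, and again only Dgcr8 KO and siMbnl1/2 overlapped. Cnot6l rose by 1.53 ± 0.11 in Dgcr8 KO (2.89-fold, adjusted p = 3.12e-05, limma), the largest increase among the members, and was lower by 0.99 (-0.99 ± 0.11, adjusted p = 3.30e-04) with miR-294. Neither gene reached the WT level with miR-294: Cnot6 remained 0.35 above WT (adjusted p = 0.030) and Cnot6l 0.54 above it (adjusted p = 0.0114). Those 2 calls were lost when single libraries were left out, Cnot6 without either WT or either miR-294 library (and with no filter on low values or with the replicate number as a block) and Cnot6l without either WT library or miR-294 replicate 2.

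The other catalytic pair behaved differently. Cnot7, a DEDD-type nuclease, measured 59.7 and 56.7 FPKM in WT, 44.8 and 50.1 in Dgcr8 KO, 41.0 and 46.8 with miR-294, and 42.0 and 36.9 with siMbnl1/2. Both WT libraries were above every other library, and those with miR-294 overlapped with Dgcr8 KO and with siMbnl1/2. Its difference from WT was -0.29 in Dgcr8 KO (adjusted p = 0.0371), lost under 8 of 18 alternatives, among them the removal of either WT library or Dgcr8 KO replicate 1 and the replicate block. With miR-294 it was -0.40 from WT (adjusted p = 0.0234), lost under 5 alternatives: no filter on low values, quantile normalization, and without either WT library or miR-294 replicate 1. For Cnot7 miR-294 minus Dgcr8 KO was -0.11 with a 95% interval of -0.35 to 0.12. Cnot8, its paralog, was 0.25 lower in Dgcr8 KO (-0.25, adjusted p = 0.0277, lost under 8 of 18, the replicate block among them) and 0.27 higher with miR-294 (adjusted p = 0.0240, lost under 6). Both calls of Cnot8 were lost without either WT library, Dgcr8 KO replicate 2 or either miR-294 library.

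Among the non-catalytic subunits, the scaffold Cnot1 went from 135 and 142 FPKM in WT to 105 and 103 in Dgcr8 KO, and stood at 103 and 97.7 with miR-294. WT was highest and the libraries with and without miR-294 differed little: Cnot1 fell by 0.41 (adjusted p = 0.00655), a call lost under quantile normalization, and miR-294 minus Dgcr8 KO was -0.05 (-0.27 to 0.17). Cnot3, which forms the NOT module with Cnot2, measured 56.9 and 58.7 FPKM in WT, 47.8 and 48.5 in Dgcr8 KO, 65.9 and 65.2 with miR-294, and 45.4 and 49.6 with siMbnl1/2. Its miR-294 libraries were above all others, with 0.44 ± 0.07 for miR-294 minus Dgcr8 KO (adjusted p = 0.00131), a call kept under all 18 alternatives. Cnot3 was 0.26 lower in Dgcr8 KO than in WT (-0.26) and Cnot2 0.23 lower (-0.23), calls lost without WT replicate 1 or WT replicate 2, and for Cnot2 also without Dgcr8 KO replicate 1. Under quantile normalization 2 of the 10 subunits were called in Dgcr8 KO, both higher, against 7 in the fit used here, and 3 were called without WT replicate 1 or without WT replicate 2. Cnot4, an E3 ubiquitin ligase associated with the complex, and Cnot10 and Cnot11, which form its N-terminal module, were called in neither comparison.

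Each of the 3 BTG/Tob genes rose in Dgcr8 KO, where 29.6% of all genes rose. Each was lower with miR-294, where 29.2% of all genes were lower. These calls held under all 18 alternatives, and both comparisons use the same Dgcr8 KO libraries. BTG/Tob proteins are antiproliferative adaptors that bind the CNOT7 and CNOT8 deadenylases, and TOB proteins also bind cytoplasmic poly(A)-binding protein. Btg1 (chr10:96617001-96622813, plus strand) measured 4.07 and 3.83 FPKM in WT, 9.34 and 9.98 in Dgcr8 KO, 4.76 and 4.98 with miR-294, and 12.0 and 11.5 with siMbnl1/2. The siMbnl1/2 libraries were highest, Dgcr8 KO was next, and no groups overlapped. Btg1 rose by 1.11 ± 0.09 (2.15-fold, adjusted p = 3.97e-05, limma) and was 0.86 lower with miR-294 (-0.86 ± 0.09, adjusted p = 2.13e-04).

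Tob1 (chr11:94211454-94215495, plus strand) was at 11.7 and 11.4 FPKM in WT, 16.7 and 17.3 in Dgcr8 KO, 7.36 and 7.17 with miR-294, and 16.1 and 16.6 with siMbnl1/2. With miR-294 it lay below WT as well as below Dgcr8 KO, unlike Btg1 and Tob2. The difference was 0.52 ± 0.07 for Dgcr8 KO minus WT (adjusted p = 6.17e-04), -1.12 ± 0.07 for miR-294 minus Dgcr8 KO (adjusted p = 5.16e-05) and -0.61 ± 0.07 for miR-294 minus WT (adjusted p = 0.00132). Tob1 had no seed match in its annotated 3′ UTR of 767 bases. Tob2 measured 4.84 and 5.35 FPKM in WT, 8.08 and 7.41 in Dgcr8 KO, 5.24 and 5.16 with miR-294, and 8.15 and 8.24 with siMbnl1/2, and the miR-294 libraries lay between the WT libraries. Tob2 was 0.52 ± 0.09 higher in Dgcr8 KO (adjusted p = 0.00174) and 0.49 lower with miR-294 (-0.49 ± 0.09, adjusted p = 0.00292), and miR-294 minus WT was 0.03 (-0.18 to 0.24).

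**Figure D2:**
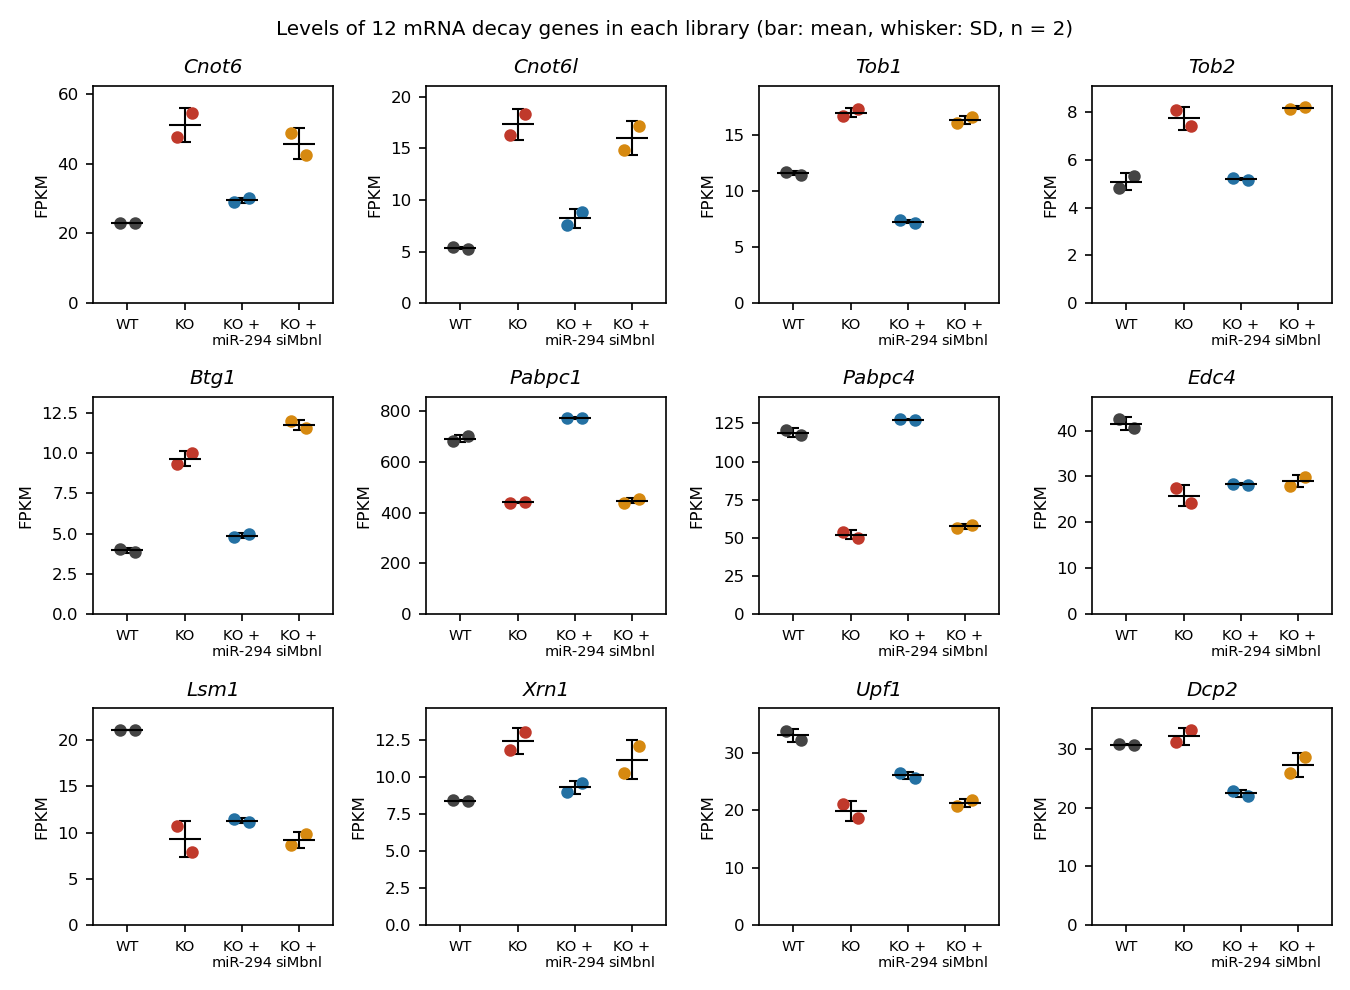
FPKM in each library (points) for 12 genes, with the group mean (bar) and SD (whisker, n = 2), every vertical axis starting at 0; the genes are the 11 named by the rule for large differences and Dcp2. The 2 WT and 2 miR-294 libraries of Pabpc4 lie between 117 and 128 FPKM and its other 4 libraries between 49.9 and 58.6, while Cnot6l, Btg1 and Tob1 are high in Dgcr8 KO and siMbnl1/2.

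The cytoplasmic poly(A)-binding proteins went the other way from the deadenylases Cnot6 and Cnot6l. Pabpc1, which coats the tail and links it to translation, was the most abundant member at 682 and 702 FPKM in WT. It measured 439 and 442 FPKM in Dgcr8 KO, 772 and 775 with miR-294, and 439 and 453 with siMbnl1/2, so that WT and miR-294 libraries were all above the others. Pabpc1 fell by 0.65 (-0.65 ± 0.05, adjusted p = 4.50e-05) and was 0.81 ± 0.05 higher with miR-294 (adjusted p = 5.08e-05). How the authors' counting shared reads among near-identical copies of a gene was not given in the sources used here, which limits Pabpc1 in particular.

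Pabpc4 (chr4:123262351-123298925, plus strand), the inducible paralog, measured 121 and 117 FPKM in WT, 54.0 and 49.9 in Dgcr8 KO, 128 and 127 with miR-294, and 56.2 and 58.6 with siMbnl1/2. The pattern was that of Pabpc1 and larger: Pabpc4 fell by 1.18 (-1.18 ± 0.06, 2.27-fold, adjusted p = 1.04e-05), the largest decrease among the members, and was 1.28 ± 0.06 higher with miR-294 (adjusted p = 3.02e-05). For miR-294 minus WT the difference was 0.10 (-0.05 to 0.25) for Pabpc4 and 0.16 (0.04 to 0.28, adjusted p = 0.055) for Pabpc1. Neither had a seed match, and both sets of calls held under all 18 alternatives.

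In the same group, Pan3, the subunit that tethers the PAN2 nuclease to target RNA, measured 9.28 and 9.54 FPKM in WT, 11.6 and 11.9 in Dgcr8 KO, 9.05 and 8.71 with miR-294, and 14.5 and 11.5 with siMbnl1/2. The libraries of WT and miR-294 were below all others. Pan3 was 0.36 lower with miR-294 (-0.36 ± 0.11, adjusted p = 0.0251, lost under 6 of 18 alternatives, among them the removal of any Dgcr8 KO or miR-294 library), and 0.29 for Dgcr8 KO minus WT did not pass (adjusted p = 0.0514), though it did under 6 alternatives, among them the removal of either siMbnl1/2 library. The nuclease Pan2 (-0.03 and -0.15) and the poly(A)-specific ribonuclease Parn (0.23 and 0.05) were called in neither comparison; Parn was called higher in Dgcr8 KO under 7 alternatives, among them the removal of Dgcr8 KO replicate 2 or either siMbnl1/2 library.

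Of the 11 decapping factors and exonucleases, 2 rose and 2 fell in Dgcr8 KO, where 29.6% of all genes rose and 30.1% fell. With miR-294 3 were lower and none higher, against 29.2% of all genes lower and 22.9% higher. That last count moved with the processing: quantile normalization gave 3 lower and 3 higher, 1 was called without miR-294 replicate 1, and 5 were called without either siMbnl1/2 library. Edc4, the scaffold that joins DCP1 and DCP2, measured 42.4 and 40.5 FPKM in WT, 27.4 and 24.2 in Dgcr8 KO, 28.4 and 28.2 with miR-294, and 28.0 and 29.9 with siMbnl1/2. All 6 knockout libraries were below WT. Edc4 fell by 0.67 (-0.67 ± 0.08, adjusted p = 2.96e-04), and miR-294 minus Dgcr8 KO was 0.13 (-0.06 to 0.32, adjusted p = 0.203).

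Lsm1 (chr8:25785288-25803975, plus strand), the subunit that defines the cytoplasmic LSM1-7 ring on deadenylated tails, was likewise lower in every knockout library than in WT. It was at 21.04 and 21.05 FPKM in WT, 10.7 and 7.90 in Dgcr8 KO, 11.5 and 11.1 with miR-294, and 8.61 and 9.80 with siMbnl1/2. Lsm1 fell by 1.11 (-1.11 ± 0.13, 2.16-fold, adjusted p = 2.77e-04) and stayed 0.84 below WT with miR-294 (-0.84 ± 0.13, adjusted p = 0.00389), with 0.27 (-0.04 to 0.57) for miR-294 minus Dgcr8 KO. The libraries of Dgcr8 KO differed from each other more than those of the other groups for this gene, and quantile normalization or leaving out Dgcr8 KO replicate 1 brought the last comparison past the threshold.

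Patl1, a scaffold between deadenylation and decapping, measured 14.7 and 14.0 FPKM in WT, 20.2 and 21.3 in Dgcr8 KO, 16.2 and 16.5 with miR-294, and 19.8 and 19.3 with siMbnl1/2. The exonuclease Xrn1 measured 8.44 and 8.36, 11.8 and 13.1, 8.99 and 9.60, and 10.2 and 12.1 FPKM in the same order. Both were lowest in WT with miR-294 next, and their Dgcr8 KO libraries lay above every WT and miR-294 library. The difference in Dgcr8 KO was 0.50 ± 0.07 for Patl1 (adjusted p = 6.39e-04) and 0.51 ± 0.10 for Xrn1 (adjusted p = 0.00332). With miR-294 Patl1 was 0.32 lower (-0.32, adjusted p = 0.00660, lost without miR-294 replicate 1) and Xrn1 0.38 lower (-0.38, adjusted p = 0.0153, lost under quantile normalization and without Dgcr8 KO replicate 2 or either miR-294 library).

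Dcp2, the decapping enzyme itself, did not follow these genes. It measured 30.9 and 30.7 FPKM in WT, 31.2 and 33.3 in Dgcr8 KO, 22.9 and 22.1 with miR-294, and 25.9 and 28.7 with siMbnl1/2. The miR-294 libraries were lowest of all 8. Dgcr8 KO minus WT was 0.06 (-0.11 to 0.24), miR-294 minus Dgcr8 KO was -0.50 ± 0.08 (adjusted p = 0.00132) and miR-294 minus WT -0.44 (adjusted p = 0.00607). The last call was lost without WT replicate 1, WT replicate 2 or miR-294 replicate 2. The cofactors Dcp1a and Dcp1b, the enhancer Edc3, the helicase Ddx6, its partner Lsm14a and the mainly nuclear exonuclease Xrn2 were called in neither comparison with Dgcr8 KO. Dcp1b, the member of lowest level at 2.56 FPKM on average in WT, was 0.34 higher in Dgcr8 KO (adjusted p = 0.0807) and 0.35 lower with miR-294 (-0.35, adjusted p = 0.0858), and both differences were called without either siMbnl1/2 library.

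Of the 4 recruiters of decay, 1 fell in Dgcr8 KO, where 30.1% of all genes fell. With miR-294 1 was lower and 1 higher, against 29.2% of all genes lower and 22.9% higher. The count for Dgcr8 KO minus WT became 3 without either siMbnl1/2 library or with the libraries of the comparison alone, when Zfp36 (0.29) and Zfp36l2 (-0.24) also passed, and 0 without WT replicate 1. Zfp36l1, which brings CCR4-NOT to AU-rich elements, measured 39.9 and 38.4 FPKM in WT, 30.1 and 33.3 in Dgcr8 KO, 37.9 and 40.3 with miR-294, and 30.3 and 29.1 with siMbnl1/2. WT and miR-294 libraries overlapped above the rest. It was 0.30 lower in Dgcr8 KO (-0.30, adjusted p = 0.0110, lost under quantile normalization and without WT replicate 1) and 0.29 higher with miR-294 (adjusted p = 0.0138, lost under 3 alternatives: quantile normalization, and without Dgcr8 KO replicate 1 or miR-294 replicate 2). Zfp36 (tristetraprolin) was 0.44 lower with miR-294 (-0.44, adjusted p = 0.0418), a call lost under 9 of 18 alternatives, among them the replicate block and the removal of any WT, Dgcr8 KO or miR-294 library. Zfp36l2 and the Pumilio protein Pum2 were called in neither comparison in the fit over all 8 libraries.

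In nonsense-mediated decay, Upf1, the central RNA helicase, measured 33.9 and 32.3 FPKM in WT, 21.1 and 18.7 in Dgcr8 KO, 26.5 and 25.7 with miR-294, and 20.8 and 21.8 with siMbnl1/2. Smg1, the kinase that phosphorylates UPF1, measured 14.9 and 14.7, 19.1 and 21.2, 15.1 and 15.4, and 20.8 and 23.1 FPKM in the same order. The pair moved in opposite directions, Upf1 lowest and Smg1 highest in Dgcr8 KO and siMbnl1/2. Upf1 fell by 0.71 (-0.71 ± 0.08, adjusted p = 2.21e-04) and was 0.38 higher with miR-294 (adjusted p = 0.00598). Upf1 with miR-294 stayed 0.33 below WT (-0.33, adjusted p = 0.0218), a call lost without either WT or either miR-294 library. Smg1 rose by 0.42 ± 0.08 (adjusted p = 0.00367) and was 0.38 lower with miR-294 (-0.38, adjusted p = 0.00724, lost without miR-294 replicate 1). The adaptor Upf2 and the endonuclease Smg6 were called in neither comparison.

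Knockdown of Mbnl1 and Mbnl2 in the knockout cells gave no called member by limma. Of all genes 1.11% were called, 0.868% higher and 0.242% lower. That background of 142 genes moved with the processing. It was 33 with the replicate block and 8 with weights by group spread. Fitting only the siMbnl1/2 and Dgcr8 KO libraries left 4. It was 204 under median-of-ratios scaling and 205 under quantile normalization. Leaving out single libraries moved it too, upward most without siMbnl1/2 replicate 2 and downward most without Dgcr8 KO replicate 2. The knockdown was partial, by the levels of Mbnl1 and Mbnl2 given above, and its part in the lack of calls was not tested. In the fit over all 8 libraries, 5 members had an unadjusted p under 0.05 (2355 genes in all). These were Btg1 (0.26), Cnot8 (0.22), Cnot2 (0.17), Dcp2 (-0.23) and Cnot7 (-0.26), named after their values were seen, and Btg1 had the lowest adjusted p of 0.166. No member differed by more than 0.26 in size. For genes that changed with miR-294, siMbnl1/2 minus Dgcr8 KO was -0.11 (-0.37 to 0.15) for Cnot6l, -0.06 (-0.22 to 0.11) for Tob1, 0.02 (-0.10 to 0.14) for Pabpc1 and 0.14 (-0.01 to 0.29) for Pabpc4.

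The transfected groups were compared directly, without the Dgcr8 KO libraries as a control. In siMbnl1/2 minus miR-294, 17 of 37 members were called, 11 higher and 6 lower, against 54% of all genes, 33% higher and 21% lower. Scaling by the median of ratios gave 7 higher and 8 lower and quantile normalization 7 higher and 10 lower, and both moved the median of all genes from 0.10 to -0.01 and -0.02. Relative to the miR-294 libraries, Btg1 was 1.12 ± 0.09 higher, Tob1 1.07 ± 0.07, Cnot6l 0.88 ± 0.11, Cnot6 0.61 ± 0.09, Tob2 0.57 ± 0.09, Smg1 0.50 ± 0.08 and Pan3 0.49 ± 0.11, while Pabpc4 was -1.14 ± 0.06, Pabpc1 -0.79 ± 0.05 and Cnot3 -0.46 ± 0.07. These 10 differences between the mimic and the siRNAs (adjusted p between 3.25e-05 and 0.00694) were the largest of the 17, and that of Pan3 was lost under quantile normalization. The other 7 called were Dcp1b, Dcp2, Patl1 and Xrn2, which were higher, and Dcp1a, Upf1 and Zfp36l1, which were lower, with differences between -0.38 and 0.41. Of the 11 decapping factors and exonucleases, 4 were higher and 1 lower here, but scaling by the median of ratios left none higher and 2 lower, so that Dcp1b, Dcp2, Patl1 and Xrn2 all lost their calls. None of the 11 was called with the libraries of the comparison alone or without either miR-294 library, and 2 were called without either WT library or siMbnl1/2 replicate 2 and with the replicate block. Upf1 lost its call without either miR-294 library or siMbnl1/2 replicate 1. Leaving out either miR-294 library left 11 members called.

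In miR-294 minus WT, 9 members were called, 2 higher (Cnot6 and Cnot6l) and 7 lower, where 26.5% of all genes were called, 11.8% higher and 14.7% lower. The 7 lower were Lsm1, Tob1, Edc4, Cnot1, Dcp2, Cnot7 and Upf1, with differences from -0.84 to -0.33. Leaving out WT replicate 1 or WT replicate 2 left 3 called, miR-294 replicate 1 left 5 and miR-294 replicate 2 left 4. The calls of Lsm1, Tob1 and Edc4 held under all 18 alternatives, and that of Cnot1 was lost without either WT or either miR-294 library. In siMbnl1/2 minus WT, 21 members were called, 10 higher and 11 lower, against 60.5% of all genes, 32.8% higher and 27.7% lower. Cnot6l (1.42), Btg1 (1.37) and Cnot6 (0.96) were at its upper end, and Lsm1 (-1.11) and Pabpc4 (-1.04) at its lower end. Both comparisons share the WT libraries with Dgcr8 KO minus WT.

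Read against the seed, 6 of the 8 members with a match were lower with miR-294 than in Dgcr8 KO and none was higher, with a median of -0.50. They were Cnot6, Cnot6l, Btg1, Tob2, Pan3 and Dcp2, and those not called were Dcp1b (-0.35) and Zfp36l2 (-0.04). Among the 29 members without a match 5 were lower and 6 higher, with a median of 0.08. These 11 calls became 6 without miR-294 replicate 1 and 7 without miR-294 replicate 2. Of all genes tested with an annotated 3′ UTR, 45.0% of those with a match were lower and 13.4% higher (median -0.23), and 27.3% of those without were lower and 26.0% higher (median -0.02). The members with a match had longer 3′ UTRs, at a median of 3220 bases against 1261, and the part of length in the difference was not tested. In Dgcr8 KO minus WT, 4 of the 8 with a match rose and none fell (Cnot6, Cnot6l, Btg1 and Tob2). Of all genes with a match 45.5% rose and 19.9% fell, so the share of members that rose (50%) was near that of other genes with a match. That count of 4 called became 7, 6 higher and 1 lower, with the libraries of the comparison alone or weighted by group spread. Calls were also gained without either siMbnl1/2 library. Matches are counted in annotated sequence and are not shown to be bound.

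**Figure D3:**
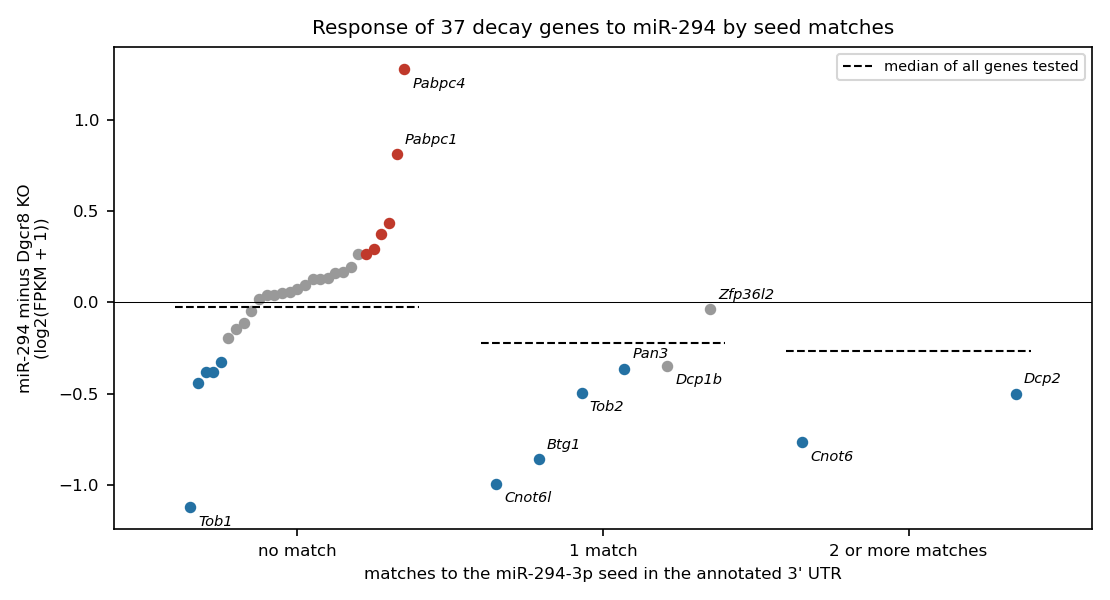
Difference of mean log2(FPKM + 1), miR-294 minus Dgcr8 KO, for the 37 genes by the number of seed matches in the annotated 3′ UTR; blue and red are called lower and higher, grey is not called, and dashed lines are the medians of all tested genes in each class. The 8 genes with a match all lie below 0, and Tob1 (-1.12) is the lowest gene without a match.

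The rest of the pathway was read from 77 other decay genes, of which 76 were tested and Exosc6 was not. In Dgcr8 KO 8 were higher and 38 lower (median -0.28), and with miR-294 33 were higher and 7 lower (median 0.18), against the same backgrounds as above. The exosome, the Ski complex that feeds it and other 3′ decay factors made up much of this: 15 of 20 fell and none rose in Dgcr8 KO, and 14 were higher and 1 lower with miR-294. Exosc2 and Exosc5, subunits of the exosome core, were 1.02 ± 0.08 and 1.02 ± 0.13 higher with miR-294 (adjusted p = 9.91e-05 and 6.78e-04). Of 11 other decapping genes 7 fell and 2 rose in Dgcr8 KO, and 6 were higher with miR-294. Of 13 other nonsense-mediated decay and exon junction genes 7 fell, and 6 were higher and 1 lower with miR-294. Without miR-294 replicate 1 or 2 the 40 calls of the wider lists in miR-294 minus Dgcr8 KO became 26 and 22, those of the exosome list going from 15 to 9 and 8, those of the nonsense-mediated decay list from 7 to 4 and 2, and, without replicate 2, those of the decapping list from 6 to 2.

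Other deadenylation genes fell in 4 of 11 cases in Dgcr8 KO (1 of 11 under quantile normalization), where 30.1% of all genes fell. The largest fall was that of Noct, a circadian member of the same enzyme family as Cnot6, at -1.53 ± 0.13 (adjusted p = 6.23e-05, limma). Whether Noct acts on poly(A) tails was not tested. Other RNA-binding recruiters were mixed, with 6 higher and 5 lower of 21, near the 29.6% of all genes that rose and 30.1% that fell. The RNase Zc3h12a was at -1.33 ± 0.14, and the binding proteins Cpeb2 and Stau2 rose by 0.83 ± 0.15 and 0.66 ± 0.12. Cpeb2 and Stau2 were also the most decreased of these genes with miR-294, at -1.22 ± 0.15 and -1.15 ± 0.12. After siMbnl1/2 only Exosc3 was called among the 76 (1.32%), near the 1.11% called of all genes. Its difference was -0.40 ± 0.06 (adjusted p = 0.0381, limma), and 11 of 18 alternatives took its adjusted p to between 0.0583 and 0.357.

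**Figure D4:**
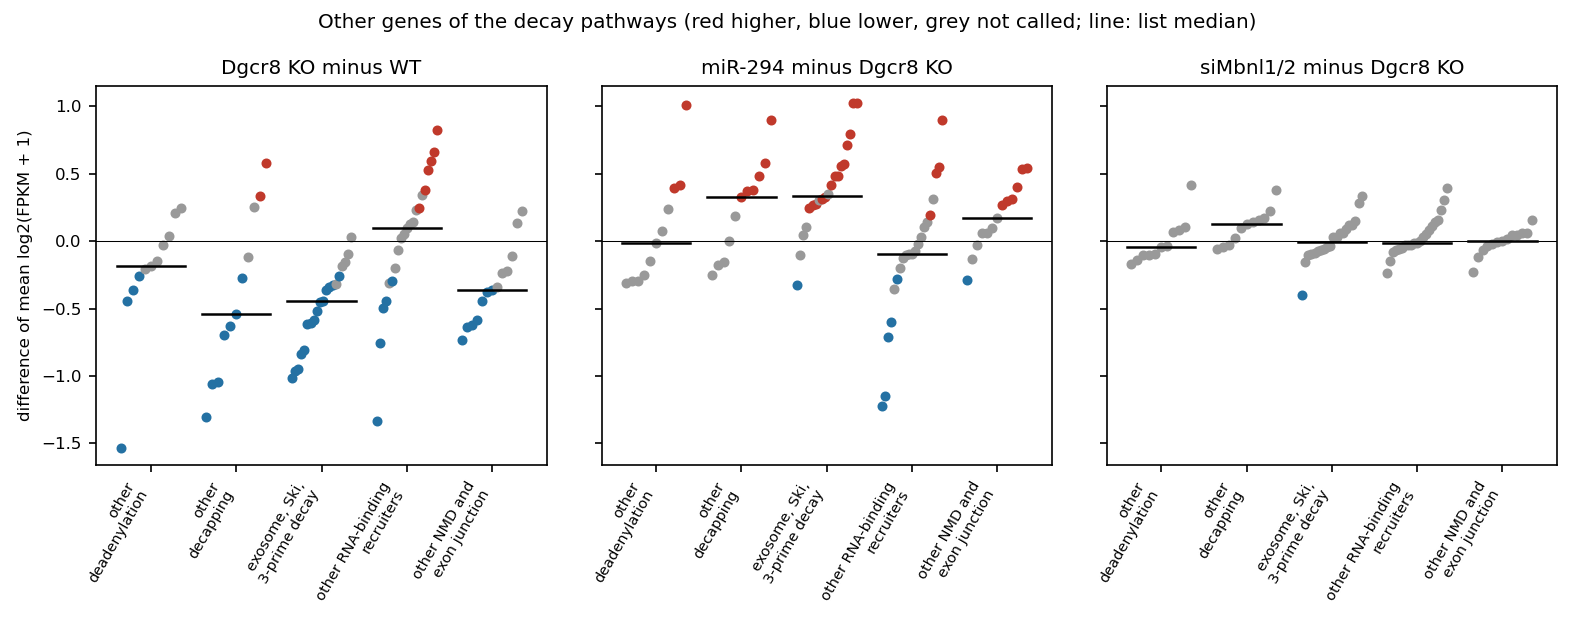
Difference of mean log2(FPKM + 1) of the 76 other decay genes tested, in 5 lists and 3 comparisons; each point is a gene, red and blue are called higher and lower, grey is not called, and black lines are list medians. The exosome list lies mostly below 0 in Dgcr8 KO minus WT (median -0.45) and mostly above 0 in miR-294 minus Dgcr8 KO (median 0.34).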

How the data were processed

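The authors' deposited table holds FPKM per gene and library for 8 libraries. STAR 2.5.0, Cufflinks 2.2.1 and mm10 are named in the submitters' processing notes, and the annotation release and the strand setting were not given in the sources used here. Because FPKM is scaled to the whole library, more of an abundant transcript lowers every other value. RNA was called polyA in the sample labels and total in the series design. Libraries were made with a dUTP protocol, per the labels.

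Values were taken as log2(FPKM + 1), a scale that understates the change of low genes, for entries with a mean of at least 1 FPKM over the 8 libraries. limma 3.58.1 (R 4.3.3, statmod 1.5.0) fitted 4 group means to all 8 libraries with a trended, robust variance. Tests were two-sided with Benjamini-Hochberg adjustment over the 12786 entries tested. The members and gene lists were chosen with earlier results of these data known. Values in every library were given for members called in a comparison with Dgcr8 KO with a difference of at least 0.5, and for others where a result turned on them; from the wider lists, the 2 largest called increases and decreases of each such comparison were named. Before use the fit was run on simulated data in which few genes were changed. Most comparisons here called far more genes, so that run does not vouch for their calls. Gene coordinates are the deposited ones, with starts moved to count from the first base; for the 27 members with the same identifier version, start and end were those of GENCODE M21. There were 18 alternatives, 8 of which left out 1 library each. The same replicate number was not stated to mark a shared culture. Tables and figures were made with Python 3.11.15, pandas 2.3.3 and matplotlib 3.10.9.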

Additional observations from a re-analysis of the deposited data

How the results depend on the processing

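The number of members called in Dgcr8 KO minus WT (19) was 16 to 23 under the 10 alternatives that keep every library and 14 to 25 when a library was left out. In miR-294 minus Dgcr8 KO (17), leaving out a library gave 11 to 20, lowest at 11 without miR-294 replicate 1. In siMbnl1/2 minus miR-294 (17) it gave 11 to 17, at 11 without either miR-294 library. In miR-294 minus WT (9) median-of-ratios scaling gave 14, the libraries of the comparison alone 18 and libraries weighted by group spread 17, while leaving out a library gave 3 to 13. In siMbnl1/2 minus WT (21) it gave 16 to 23. In siMbnl1/2 minus Dgcr8 KO it was 0 throughout. Calls over all genes moved as well. In miR-294 minus WT they were 3390 of 12786 in the fit used here and 3528 under median-of-ratios scaling. They were 6321 of 12753 with the libraries of the comparison alone and 6669 of 12786 with libraries weighted by group spread. Fewer genes in all were called there without either WT or either miR-294 library. The same held without either miR-294 library in the other 2 comparisons with miR-294. The cause was not tested. Splits of higher and lower calls moved with scaling: 9 and 7 in Dgcr8 KO minus WT and 9 and 9 in miR-294 minus Dgcr8 KO under quantile normalization, 8 and 11 in the latter under median-of-ratios scaling, and 7 and 7 or 4 and 6 in miR-294 minus WT. With the replicate number as a block (replicate block) 17 members were called in Dgcr8 KO minus WT, 16 in miR-294 minus Dgcr8 KO and 14 in siMbnl1/2 minus miR-294. The same block gave 8 in miR-294 minus WT, 20 in siMbnl1/2 minus WT and 0 for the knockdown against Dgcr8 KO. Deviations of libraries with the same number correlated between groups at -0.05 to 0.19 across genes, highest between WT and Dgcr8 KO, and whether the numbers pair the libraries was not established. Of all single-member values under the alternatives, 3733 kept their side of the threshold, 152 lost a call, 105 gained one and 0 called differences changed sign. Alternatives for the wider lists and the seed groups were chosen after seeing the data. The filter at a mean of 5 FPKM removed Dcp1b. With 2 libraries a group, a member that was not called is not shown to be equal between groups.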
